A study of Homo sapiens with 8 samples.

Results

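The genes described here are the numbered SOX, FOX, GATA, TBX, ZIC, KLF, HAND, NEUROD and NEUROG transcription factors, chosen by symbol alone, with 1 probe set per gene (the one with the highest mean over the 8 arrays). They come to 107 of the 14884 annotated genes (0.719%): 40 FOX, 19 SOX, 17 KLF, 13 TBX, 6 GATA, 4 ZIC, 3 NEUROD, 3 NEUROG and 2 HAND genes. RNA was taken from cells labelled SCC13, a line grown from a human squamous cell carcinoma of the skin, and measured on 8 microarrays. The cells carried a short hairpin RNA against GFP (shGFP, the control, aimed at a jellyfish protein), RING1B (shRING1B), EZH2 (shEZH2) or BMI1 (shBMI1), with 2 arrays per hairpin. No second hairpin per gene, treatment or time is named in the labels. Whether the 2 arrays of a hairpin are separate cultures is not stated. The p-values set a difference against the spread between arrays of the same hairpin, pooled over the 4 hairpins. That spread may be technical only. In the sample titles shEZH2 carries the prefix SCCL3 and the other hairpins SCC13, although the cell line field is the same, so the shEZH2 hairpin and any line or batch behind that prefix cannot be told apart.

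These factors switch on the gene programmes of particular lineages: GATA, HAND and TBX proteins act in heart, gut and limb formation, ZIC, SOX and NEUROG proteins in the nervous system, and several SOX, KLF and FOX proteins in the epidermis and hair follicle. In cells of other lineages many of their genes are held silent by Polycomb proteins, which gather at CpG-rich promoters. EZH2 is the methyltransferase of Polycomb repressive complex 2 and marks histone H3. RING1B and BMI1 are the ubiquitin ligase of Polycomb repressive complex 1 and its partner, and mark histone H2A. The comparison asks which of the factors were higher when each of these proteins was targeted.

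The promoters of GATA6, HAND1, ZIC2 and SOX2 are shown because GATA6 and HAND1 had their highest array values with shRING1B and shEZH2, and ZIC2 and SOX2 with shBMI1. Each window runs from 250 bases before the RefSeq gene start to 50 bases after it, 5′ to 3′ on the gene's strand, in build GRCh38.p14, with CpG dinucleotides in capitals. The GATA6 window lies at chr18:22169339-22169638 (plus strand), HAND1 at chr5:154478178-154478477 (minus strand), ZIC2 at chr13:99981534-99981833 (plus strand) and SOX2 at chr3:181711675-181711974 (plus strand).
GATA6: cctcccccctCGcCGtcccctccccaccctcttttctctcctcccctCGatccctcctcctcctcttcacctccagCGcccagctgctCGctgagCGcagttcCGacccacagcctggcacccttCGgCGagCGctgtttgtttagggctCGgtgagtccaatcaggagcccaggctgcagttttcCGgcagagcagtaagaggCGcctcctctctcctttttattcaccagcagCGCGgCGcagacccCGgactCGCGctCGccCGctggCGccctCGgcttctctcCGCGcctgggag
HAND1: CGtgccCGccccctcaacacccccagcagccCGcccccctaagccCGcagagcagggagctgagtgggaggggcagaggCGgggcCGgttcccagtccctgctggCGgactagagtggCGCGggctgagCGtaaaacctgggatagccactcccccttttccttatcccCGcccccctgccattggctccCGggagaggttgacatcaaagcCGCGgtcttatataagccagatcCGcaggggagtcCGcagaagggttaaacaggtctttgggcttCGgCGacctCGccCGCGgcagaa
ZIC2: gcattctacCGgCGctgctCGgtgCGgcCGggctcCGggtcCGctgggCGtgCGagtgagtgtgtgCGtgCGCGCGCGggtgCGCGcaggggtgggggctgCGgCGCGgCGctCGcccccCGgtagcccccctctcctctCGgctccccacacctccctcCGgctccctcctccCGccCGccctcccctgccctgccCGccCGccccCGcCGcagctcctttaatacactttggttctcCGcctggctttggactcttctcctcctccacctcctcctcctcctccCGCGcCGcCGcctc
SOX2: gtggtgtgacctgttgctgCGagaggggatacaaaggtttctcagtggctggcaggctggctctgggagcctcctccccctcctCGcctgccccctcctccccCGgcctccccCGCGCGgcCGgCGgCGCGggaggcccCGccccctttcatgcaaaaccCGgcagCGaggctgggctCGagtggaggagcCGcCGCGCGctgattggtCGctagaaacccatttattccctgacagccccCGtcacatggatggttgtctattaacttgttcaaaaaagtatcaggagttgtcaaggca
GATA6 has 25 CpG in its window, a number reached by 43.5% of RefSeq protein-coding promoters of this length, and ZIC2 has 35, reached by 19.0%. HAND1 has 21 and SOX2 has 20 (53.8% and 56.0%). The arrays hold no measurement of Polycomb binding or histone marks, so the sequences describe the genes and say nothing of what bound there.

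The median log2 value of an array ranged from 5.49 to 5.52. EZH2 itself fell on the arrays of its hairpin, by 0.91 ± 0.12 (SE, adjusted p = 0.0183), while BMI1 and RNF2, the gene of RING1B, were not analysed here, so those knockdowns were not checked. The keratinocyte genes KRT5, KRT14 and DSG3 had mean log2 values of 10.5, 9.67 and 9.92 with shGFP, and 7 of 18 listed keratinocyte markers were measured. Their log2 summed signal was 12.72 to 12.77 with shGFP, 12.49 to 12.52 with shRING1B, 12.60 to 12.67 with shEZH2 and 12.55 to 12.67 with shBMI1. All 7 keratinocyte differences were below 0 with shRING1B and 6 of 7 with shEZH2 and with shBMI1. The exceptions were DSG3 with shEZH2 (0.43, adjusted p = 0.176) and DSC3 with shBMI1 (0.44, adjusted p = 0.909). DSG3 was at -0.58 with shRING1B and -0.48 with shBMI1. Of 4 measured fibroblast markers of 10, DCN rose with shEZH2 (0.93, adjusted p = 0.0109), while LUM, THY1 and DPT were at 0.89, -0.15 and -0.09 and did not pass. Their summed signal was 8.55 to 8.56 with shEZH2, 7.94 to 8.00 with shGFP, 7.96 to 8.12 with shRING1B and 8.19 to 8.29 with shBMI1. Of 7 melanocyte markers of 8, MLANA rose with shEZH2 (0.64, adjusted p = 0.046) and 3 were below 0, with sums of 8.30 to 8.36 against 8.24 to 8.26 with shGFP, 8.23 to 8.35 with shRING1B and 8.18 to 8.30 with shBMI1. MLANA and LUM were dim, with means of 4.18 and 4.15 with shGFP and 4.83 and 5.04 with shEZH2. The dimmest 30% of all genes by mean signal reached up to 5.61. Of 3 neural markers of 8, MAP2 rose with shEZH2 (0.66, adjusted p = 0.0435) and was at 0.32 with shBMI1 (adjusted p = 0.784). The neural sums were 8.27 to 8.38 with shEZH2, 7.84 to 8.08 with shGFP, 7.89 to 8.15 with shRING1B and 8.07 to 8.17 with shBMI1. The 5 endothelial markers of 7 gave 8.56 to 8.58 with shGFP, 8.62 to 8.67 with shRING1B, 8.44 to 8.53 with shEZH2 and 8.65 to 8.81 with shBMI1, and among them KDR was at 0.61 with shRING1B and 0.54 with shBMI1 (adjusted p = 0.565 and 0.903). The 4 leukocyte markers of 10 gave 11.2 to 11.3 with shEZH2 and 11.1 with shGFP, 11.0 to 11.2 with shRING1B and 11.1 with shBMI1. A log2 RMA value is never 0, so absence of a marker cannot be read from these arrays. The part of these markers in the results below was not tested.

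A gene is called here when limma's moderated test gives a Benjamini-Hochberg adjusted p under 0.05 over all 14884 genes of a comparison. Differences are log2, with the SE of that fit, and n is 2 arrays per group throughout. An exact two-sided permutation test of 2 arrays against 2 cannot go below p = 0.333, and the number of arrays limits the precision. With shEZH2, 1 of the 107 factors, GATA6, rose and 0 fell, where 0.732% of all genes were called. With shRING1B and with shBMI1, 0 factors were called, and the share of all genes called was 0% in both. At an unadjusted p under 0.05, 14 factors were higher and 2 lower with shRING1B (13.1% and 1.87%), where all genes gave 4.8% higher and 3.8% lower. For shEZH2 the counts were 12 higher and 8 lower (11.2% and 7.48%), where all genes gave 7.53% and 8.65%. The shBMI1 arrays gave 7 higher and 3 lower (6.54% and 2.8%), where all genes gave 2.89% and 2.69%. The share of factors that were higher exceeded that of all genes with each hairpin, and the share that were lower was under that of all genes with shRING1B and shEZH2 and close to it with shBMI1. The 3 comparisons share the shGFP arrays.

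Counting factors whose 2 hairpin arrays both lay above both shGFP arrays gave 32 with shRING1B, 38 with shEZH2 and 21 with shBMI1. The same was true of 18.2%, 23.1% and 14% of all genes, which compares with 29.9%, 35.5% and 19.6% of the factors. Both arrays lay below in 13, 17 and 21 factors (12.1%, 15.9% and 19.6%), against 19.1%, 27% and 17.8% of all genes. The median difference of the factors was 0.04 with shRING1B, 0.06 with shEZH2 and 0.01 with shBMI1, and the median over all genes was -0.00, -0.01 and -0.01. The shRING1B median was 0.0053 without shRING1B replicate 1, 0.0714 without replicate 2, 0.0614 without shGFP replicate 1 and 0.0088 without the dimmest 30% of genes. The shBMI1 median was below 0 with quantile normalization (-0.0079), median centring (-0.012), the dimmest genes left out (-0.0029), or without shGFP replicate 1 (-0.0017) or shBMI1 replicate 1 (-0.025).

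**Figure D1:**
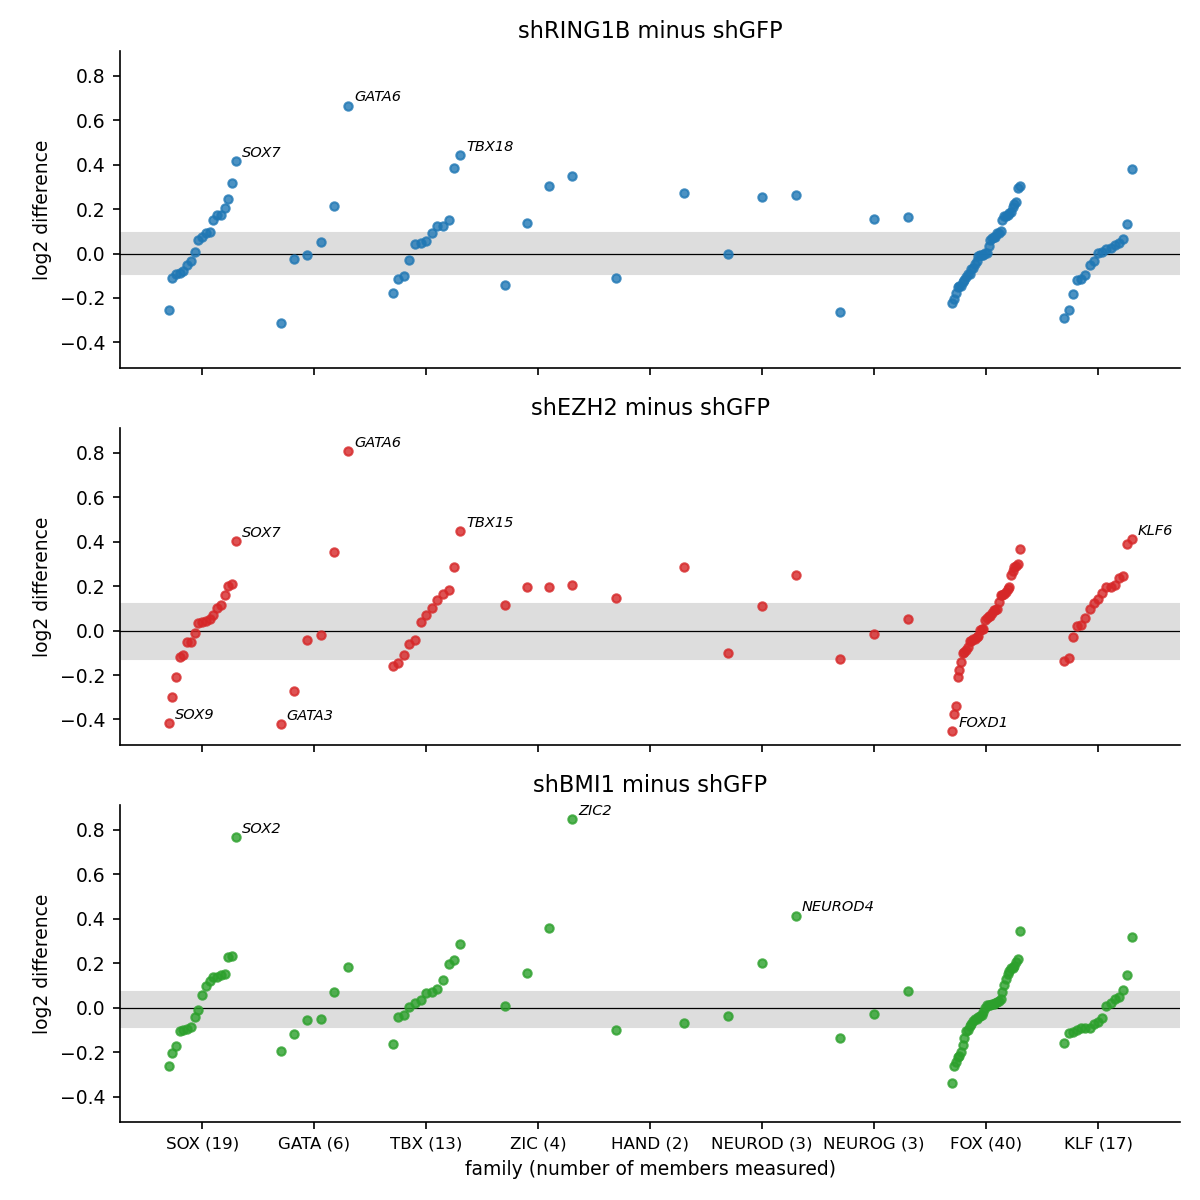
Log2 difference from shGFP (vertical axis) of each of the 107 factors, 1 point per gene, sorted within each family, for shRING1B, shEZH2 and shBMI1; the grey band spans the middle 50% of all 14884 genes and genes beyond 0.4 in size are named. Most points lie near the band, and GATA6 stands highest with shRING1B and shEZH2, ZIC2 and SOX2 with shBMI1.

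GATA6, a zinc finger factor of endoderm and heart that also marks the sebaceous duct in skin, gave the only call against shGFP. Its log2 values were 7.96 and 7.88 on the shGFP arrays, 8.69 and 8.48 with shRING1B, 8.86 and 8.60 with shEZH2, and 8.02 and 7.96 with shBMI1. The 4 arrays of shRING1B and shEZH2 lay above the other 4 with no overlap. With shEZH2 it rose 1.75-fold (0.81 ± 0.12, adjusted p = 0.026). In the shRING1B comparison the difference was 0.67 ± 0.12, or 1.59-fold, and did not pass (adjusted p = 0.187), and with shBMI1 it was 0.07 ± 0.12 (adjusted p = 0.999). These are levels in whole cultures, in which fewer cells of a type and less RNA per cell cannot be told apart. GATA6 was higher with shEZH2 than with shBMI1 by 0.74 (adjusted p = 0.0299). Between shRING1B and shEZH2 the difference was -0.14, with a 95% interval of -0.41 to 0.12, and between shRING1B and shBMI1 it was 0.60 (adjusted p = 0.245). GATA6 was also the 1 factor called by the F test over all 4 hairpins (adjusted p = 0.038), where 0.679% of all genes were called, and leaving out any 1 of the 8 arrays ended that call. The shEZH2 call was lost on leaving out any 1 of the shGFP or shEZH2 arrays, with differences of 0.68 to 0.94 and adjusted p from 0.101 to 0.197. The probe set was not dim: its mean over the 8 arrays stood at percentile 70.5 of all annotated genes.

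None of the other GATA and HAND genes was called. HAND1, a heart and placenta factor, read 7.73 and 7.75 with shGFP, 8.05 and 7.97 with shRING1B, 8.07 and 7.98 with shEZH2, and 7.61 and 7.66 with shBMI1. Its 4 arrays of shRING1B and shEZH2 lay above the other 4, as for GATA6, and both shBMI1 arrays lay below both controls. SOX7, KLF2 and FOXP3 also had the arrays of shRING1B and shEZH2 above the other 4. The share of all genes with that split was not counted. For HAND1 the differences from shGFP were 0.27, 0.29 and -0.10, and none passed (adjusted p = 0.415, 0.167 and 0.996). Against shBMI1, HAND1 was 0.39 higher with shEZH2 (adjusted p = 0.0832). GATA4, which works beside GATA6 in the heart, was at 7.78 and 7.81 with shGFP, 7.48 and 7.48 with shRING1B, 7.59 and 7.45 with shEZH2 and 7.51 and 7.68 with shBMI1. All of its 6 hairpin arrays lay below the controls, with differences of -0.31, -0.27 and -0.19 that did not pass. GATA5 differed by 0.22, 0.35 and 0.18 in the same order, and HAND2 by -0.11, 0.14 and -0.07. GATA1 and GATA2, which act in blood formation, stayed within 0.12 of shGFP in every comparison.

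Among T-box genes, which pattern mesoderm, none was called. TBX18, a factor of the sinus node and ureter, read 5.05 and 4.94 with shGFP, 5.46 and 5.42 with shRING1B, 5.07 and 5.13 with shEZH2, and 5.17 and 5.25 with shBMI1. Its difference with shRING1B was 0.44 ± 0.09 (adjusted p = 0.239), the largest of the family there. TBX22, a palate gene, differed by 0.39 with shRING1B, and TBX15, which acts in limb skeleton and dermis, by 0.45 with shEZH2 (adjusted p = 0.421 and 0.231). TBX19, a pituitary factor, was lower on all 6 hairpin arrays, by 0.18, 0.16 and 0.17 with shRING1B, shEZH2 and shBMI1, without passing.

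**Figure D2:**
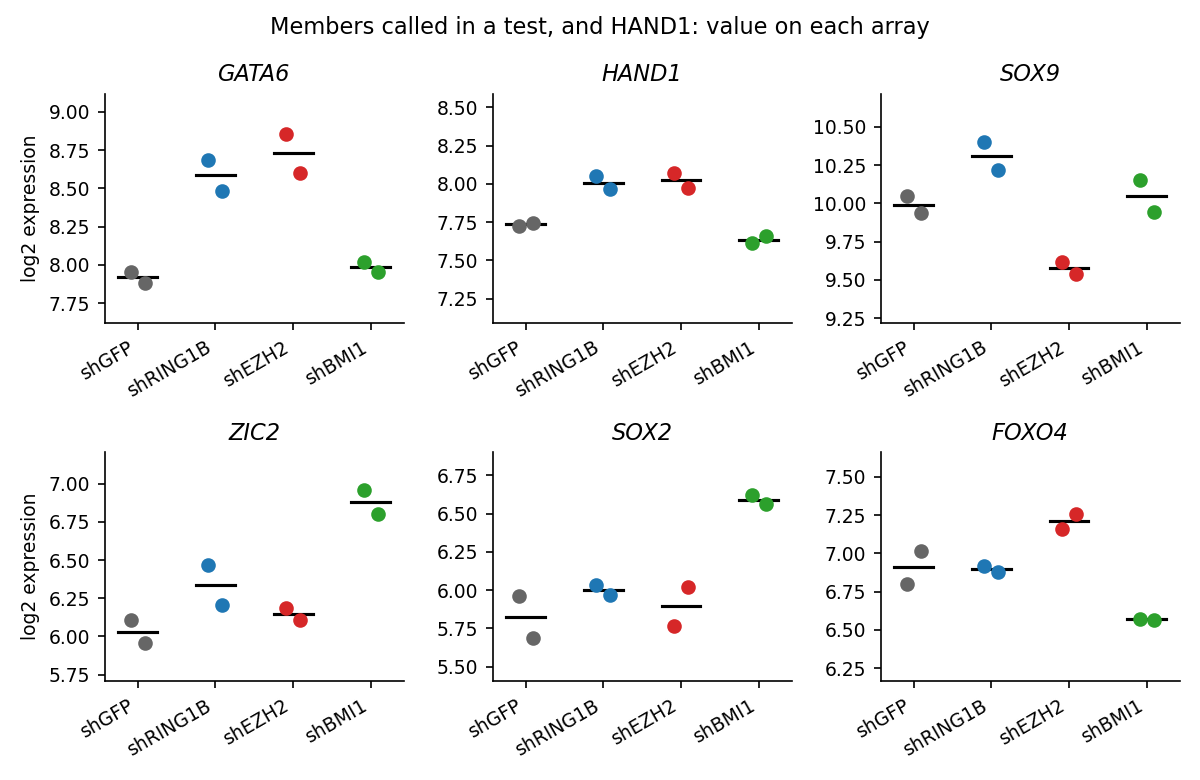
Log2 expression (vertical axis) on each array (points, 2 per hairpin) with the group mean (line) for the 5 factors called in a test and for HAND1; every panel spans 1.5 log2 units. GATA6 and HAND1 are high with shRING1B and shEZH2, ZIC2 and SOX2 with shBMI1, SOX9 is lowest with shEZH2, and FOXO4 is lowest with shBMI1.

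The 5 largest shBMI1 differences above 0 without overlap were those of ZIC2, SOX2, NEUROD4, ZIC5 and FOXP2, and none passed. ZIC2, a zinc finger factor of the early forebrain, read 6.11 and 5.96 with shGFP, 6.47 and 6.21 with shRING1B, 6.18 and 6.11 with shEZH2, and 6.96 and 6.80 with shBMI1. Both shBMI1 arrays lay above the other 6. The difference of 0.85 ± 0.12 (1.80-fold) ranked 2 by increase and 5 by p among all 14884 genes, but its adjusted p was 0.223. With shRING1B and shEZH2 the differences were 0.30 and 0.12 (adjusted p = 0.514 and 0.665). The direct comparison of shEZH2 with shBMI1 passed, with ZIC2 lower with shEZH2 by 0.73 (adjusted p = 0.031), and that of shRING1B with shBMI1 did not (-0.54, adjusted p = 0.245).

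SOX2, a pluripotency factor that is also active in squamous carcinomas, read 5.96 and 5.69 with shGFP, 6.03 and 5.97 with shRING1B, 5.77 and 6.02 with shEZH2, and 6.62 and 6.56 with shBMI1. Again both shBMI1 arrays stood above the other 6, while the shEZH2 arrays overlapped the controls. The shBMI1 difference was 0.77 ± 0.12 (1.70-fold), ranked 7 by increase and 11 by p among all genes, with an adjusted p of 0.316. Differences with shRING1B and shEZH2 were 0.17 and 0.07 (adjusted p = 0.77 and 0.82). SOX2 was lower with shEZH2 than with shBMI1 by 0.70 (adjusted p = 0.0495), and lower with shRING1B than with shBMI1 by 0.59 without passing (adjusted p = 0.245). With replicate number as a block in the fit, the difference between shEZH2 and shBMI1 did not pass (adjusted p = 0.0662). The call against shBMI1 was lost without any 1 array of shRING1B, shEZH2 or shBMI1 (adjusted p from 0.0786 to 0.258) and when only the arrays compared were fitted (0.0942). The probe sets of ZIC2 and SOX2 stood at percentiles 42.9 and 38.1 by mean signal. No detection calls were used here, so whether either gene was silent in the control cells was not measured.

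ZIC5 lies next to ZIC2 on chromosome 13. Its values were 6.16 and 5.98 with shGFP, 6.51 and 6.33 with shRING1B, 6.25 and 6.28 with shEZH2, and 6.60 and 6.26 with shBMI1. It differed by 0.36 with shBMI1 and 0.35 with shRING1B, neither of which passed (adjusted p = 0.834 and 0.51), so its shBMI1 difference was smaller than that of ZIC2 and was near its own shRING1B difference. ZIC1 and ZIC4, a neighbouring pair on chromosome 3, differed by 0.16 and 0.01 with shBMI1. NEUROD4, a neuronal differentiation factor, read 4.86 and 4.82 with shGFP and 5.14 and 5.38 with shBMI1, a difference of 0.41 (adjusted p = 0.637). NEUROG2, which starts neurogenesis, differed by -0.26 with shRING1B, and FOXP2, a forebrain factor, by 0.37 with shEZH2 and 0.35 with shBMI1. SOX7, an endothelial SOX gene, differed by 0.42 with shRING1B and 0.40 with shEZH2 (adjusted p = 0.382 and 0.153). KLF17, a factor of the early embryo, differed by 0.38, 0.20 and 0.32 with shRING1B, shEZH2 and shBMI1, and none passed.

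Of the 18 factors listed for epidermis and squamous cells 17 were measured. Against shGFP 1 of them, GATA6, was called, with shEZH2, where 0.732% of all genes were called. Between hairpins GATA6 and SOX2, described above, and SOX9 were called. The median difference of the 17 was 0.05 with shRING1B, 0.04 with shEZH2 and 0.00 with shBMI1. SOX9, which maintains hair follicle stem cells, read 10.05 and 9.94 with shGFP, 10.40 and 10.22 with shRING1B, 9.62 and 9.54 with shEZH2, and 10.15 and 9.95 with shBMI1. It was highest on the shRING1B arrays and lowest on the shEZH2 arrays. The difference between those hairpins, 0.73 (1.66-fold), was the 1 factor call of that comparison (adjusted p = 0.0315), where 0.578% of all genes were called. Neither side passed against shGFP, at 0.32 with shRING1B and -0.42 with shEZH2 (adjusted p = 0.453 and 0.129). Leaving out any 1 array of shGFP, shRING1B or shEZH2 ended the SOX9 call, with differences of 0.64 to 0.82 and adjusted p from 0.0586 to 0.248.

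GATA3, which shapes the hair follicle and epidermis, had means of 10.05 ± 0.08 with shGFP and 9.63 ± 0.10 with shEZH2 (SD, n = 2), with no overlap. Its difference of -0.42 with shEZH2 did not pass (adjusted p = 0.137), and those with shRING1B and shBMI1 were -0.01 and -0.06. KLF5, which supports epithelial growth, was at -0.25 with shRING1B and 0.14 with shEZH2, and KLF4, a barrier factor, stayed between 0.05 and 0.17. FOXE1, a hair follicle and thyroid factor, differed by 0.30, 0.27 and 0.18 with shRING1B, shEZH2 and shBMI1, and FOXN1, which acts in hair keratinisation, by -0.09, -0.04 and -0.24. SOX15 differed by -0.08, -0.21 and -0.17. FOXO1 differed by 0.17, 0.20 and 0.02. SOX4, SOX21, KLF3, FOXQ1, TBX1 and TBX3 lay within 0.16 of shGFP in every comparison. None of the genes in this paragraph passed.

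FOXO4, a forkhead factor downstream of insulin and AKT signalling, separated shEZH2 from shBMI1. Its values were 6.80 and 7.02 with shGFP, 6.92 and 6.88 with shRING1B, 7.16 and 7.26 with shEZH2, and 6.57 and 6.57 with shBMI1. Both shEZH2 arrays lay above and both shBMI1 arrays below all the others. FOXO4 was 0.64 (1.56-fold) higher with shEZH2 than with shBMI1 (adjusted p = 0.0282), while the differences from shGFP were 0.30 and -0.34 and did not pass (adjusted p = 0.197 and 0.704). With GATA6, ZIC2 and SOX2 this makes 4 factors called between shEZH2 and shBMI1, 2 higher and 2 lower with shEZH2, where 0.974% of all genes were called. Leaving out either shGFP array left FOXO4 and SOX2 called, either shRING1B array GATA6 and ZIC2, and any array of shEZH2 or shBMI1 none, with adjusted p from 0.0921 to 0.258 in those last cases. Between shRING1B and shBMI1 0 factors were called, where 0.0134% of all genes were. At an unadjusted p under 0.05 the number of factors that differed was 22 between shRING1B and shEZH2, 17 between shRING1B and shBMI1, and 22 between shEZH2 and shBMI1 (20.6%, 15.9% and 20.6%). All genes gave 15.6%, 9.18% and 15.1%.

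**Figure D3:**
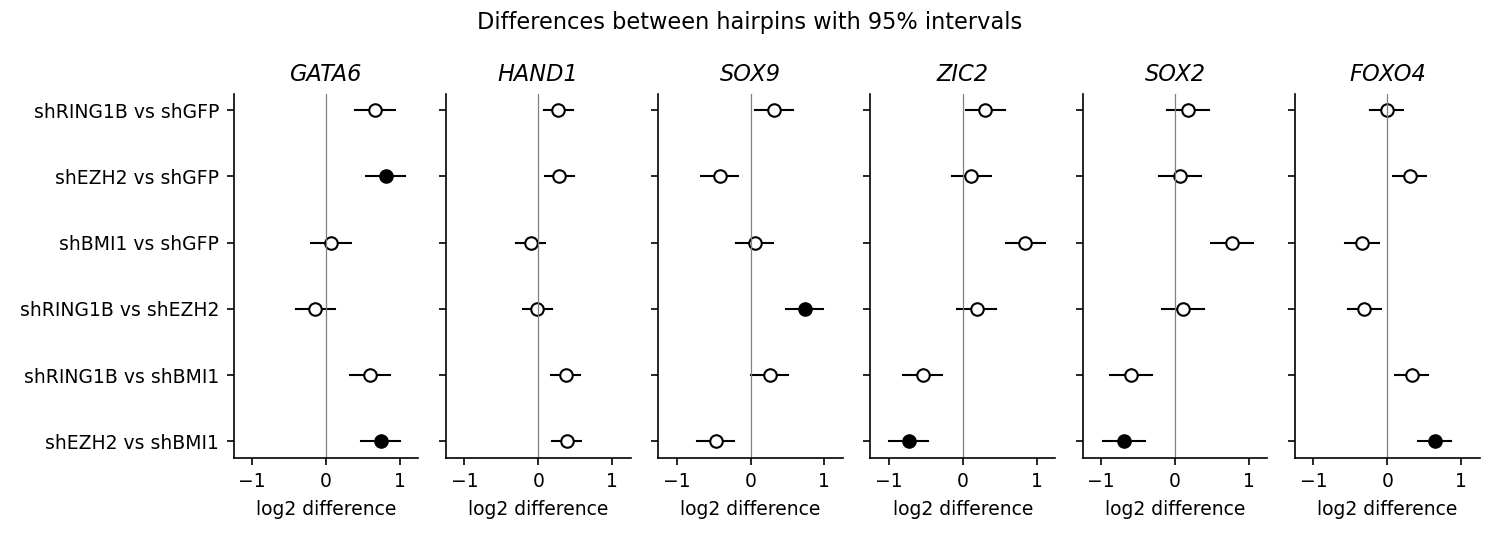
Log2 differences (horizontal axis; first hairpin minus second) with 95% intervals in the 6 comparisons of hairpins for 6 factors; filled points have an adjusted p under 0.05. GATA6 is filled against shGFP and shBMI1 with shEZH2, SOX9 between shRING1B and shEZH2, and ZIC2, SOX2 and FOXO4 between shEZH2 and shBMI1.

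None of the 23 widely expressed and growth-linked factors was called against shGFP. With shRING1B their median difference was 0.00 and 0 had an unadjusted p under 0.05. With shEZH2 the median was 0.09, with 2 higher and 3 lower at that threshold. All genes gave a median of -0.01 with shEZH2, with 7.53% higher and 8.65% lower. KLF6, an early-response factor, read 10.41 and 10.24 with shGFP and 10.71 and 10.76 with shEZH2, a difference of 0.41 (adjusted p = 0.102). KLF9, a glucocorticoid-responsive repressor, is not among the 23, and neither are FOXD1, FOXA1 and FOXJ1 below. KLF9 differed by 0.39 with shEZH2 (adjusted p = 0.145) and by -0.11 and -0.09 with shRING1B and shBMI1. FOXM1, which drives mitotic genes, was at 9.42 and 9.42 with shGFP and 9.19 and 8.98 with shEZH2, a difference of -0.34 (adjusted p = 0.154). FOXD1, a kidney stroma factor, had the largest decrease with shEZH2, -0.45 (adjusted p = 0.117). FOXA1, a pioneer factor of gland and gut epithelia, was at -0.38 with shEZH2 and -0.26 with shBMI1, SOX13 at -0.26, -0.30 and -0.26 with shRING1B, shEZH2 and shBMI1, and the ciliogenesis factor FOXJ1 at -0.22 with shBMI1. None of these passed.

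**Figure D4:**
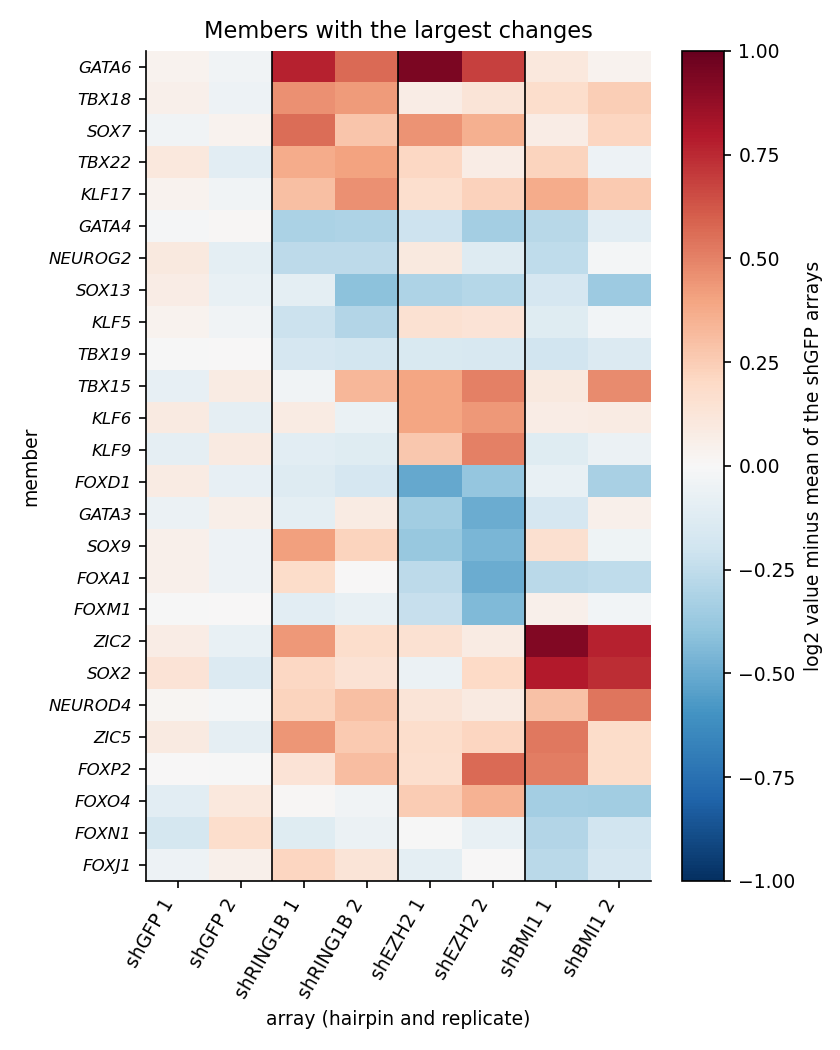
Log2 value on each of the 8 arrays (columns) minus the mean of the shGFP arrays, on a colour scale from -1 to 1, for the 26 factors (rows) that were among the 5 largest increases or 5 largest decreases of a hairpin without overlap with shGFP. The strongest colours are GATA6 with shRING1B and shEZH2 and ZIC2 and SOX2 with shBMI1.

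A list headed lineage factors silent in most adult epithelia held 49 genes, and 46 were measured. It includes FOXA1, named above for gland and gut epithelia, and shares SOX21 with the epidermal list. Of the 46, 14 were in the dimmest 30% of all genes and 0 in the brightest 30%. Whether they were silent in these cells was not measured. None of the 46 was called against shGFP, while ZIC2, which is on the list, was called between shEZH2 and shBMI1. Their median difference was 0.09 with shRING1B, 0.07 with shEZH2 and 0.04 with shBMI1, and 30, 29 and 28 of the 46 were above 0, where 49.2%, 48.1% and 46.6% of all genes were. At an unadjusted p under 0.05, 10 of the 46 were higher and 1 lower with shRING1B, where all genes gave 4.8% and 3.8%. With shEZH2 5 were higher and 2 lower, where all genes gave 7.53% and 8.65%. With shBMI1 6 were higher and 1 lower, where all genes gave 2.89% and 2.69%. Splitting the 107 factors by mean signal put 20 in the lowest 30% of all genes, 66 in the middle 40% and 21 in the highest 30%. In the dimmest class 5 of 20 were higher with shRING1B at an unadjusted p under 0.05, 2 with shEZH2 and 4 with shBMI1, and 0 were lower in any. All 4465 genes of that class gave 261, 277 and 227 higher and 173, 177 and 156 lower. The median difference of the 20 dim factors was 0.15, 0.07 and 0.08 with shRING1B, shEZH2 and shBMI1, against 0.02, 0.03 and 0.01 for all genes of the class. A dim probe set understates a change, but differences of dim genes were also larger in size. Over all genes of the dimmest class the median size was 0.121, 0.131 and 0.119 with shRING1B, shEZH2 and shBMI1. In the brightest class it was 0.065, 0.108 and 0.047. The part of noise in this was not tested. The factors called here were not in the dimmest class. At the same threshold and in the same order of hairpins, the 66 middle factors gave 7, 8 and 3 higher and 1, 3 and 3 lower. All 5954 genes of the middle class gave 365, 598 and 188 higher and 261, 465 and 196 lower. The 21 brightest factors gave 2, 2 and 0 higher and 1, 5 and 0 lower. All 4465 genes of the brightest class gave 89, 246 and 15 higher and 131, 645 and 48 lower.

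The 4 factors with a second probe set give a check of single values. FOXD1 was at -0.45 on the probe set used and -0.21 on the other with shEZH2. FOXO3 with shRING1B (-0.11 and 0.09), SOX12 with shEZH2 (0.10 and -0.02) and ZIC4 with shBMI1 (0.01 and -0.14) differed in sign between their probe sets. GATA6, ZIC2, SOX2, SOX9 and FOXO4 each rest on 1 probe set.

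Promoter windows were found for 82 of the 107 factors. Their median of 22.5 CpG was close to the 23 of the 10749 annotated genes with a window and the 22 of the 15843 RefSeq protein-coding genes. At least 22 CpG were present in 54.9% of the factors, 53.1% of the annotated genes and 51.2% of the protein-coding genes, so the factors as a whole did not stand apart in this measure. The 18 factors of the dimmest class with a window had a median of 19 CpG, and 33.3% had at least 22. The 15 of the brightest class had a median of 25, and 53.3% had at least 22. All genes were not split in this way. SOX9 was among those without a window.

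Related factors outside the symbol rule gave 1 call. MSC, a bHLH repressor of the same protein class as HAND1, rose with shEZH2 from 6.26 ± 0.13 to 7.43 ± 0.01 (mean ± SD, n = 2), a difference of 1.17 ± 0.10 (SE, adjusted p = 0.00489). With shRING1B and shBMI1 MSC differed by 0.34 and 0.39 (adjusted p = 0.384 and 0.656). It was the 1 call among 34 measured of 42 listed genes, where 0.732% of all genes were called. The next smallest p-values of that list were those of TWIST1 (-0.41) and GLI2 (0.29) with shRING1B, EOMES (0.31) and GLI3 (0.24) with shEZH2, and ASCL2 (-0.29) and ATOH1 (0.26) with shBMI1, and none passed. Of 23 epidermal regulators outside the families 14 were measured and 0 were called. EHF, an ETS factor of epithelia, differed by 0.35 with shRING1B, 0.53 with shEZH2 (adjusted p = 0.0816) and -0.18 with shBMI1. OVOL2 differed by -0.30, -0.21 and -0.19 in the same order, OVOL1 by 0.17 with shEZH2 and -0.30 with shBMI1, and TRPS1 by -0.23 with shRING1B.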

How the data were processed

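The authors deposited a table of log2 expression values for probe sets. Per the submitters' processing notes, the tools were RMA, which corrects background, quantile-normalizes and summarises probes, and limma. Tool versions, array type and genome build were not given in the sources used here. Such values compress differences of dim probe sets, and quantile normalization would hide a shift shared by most genes. Of 53617 probe sets 16098 had 1 symbol in the platform annotation, 0 several and 37519 none.

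Group means were fitted to all 8 arrays with limma 3.58.1 in R 4.3.3, with 4 residual degrees of freedom and empirical Bayes moderation without trend; the script was tested on simulated data. No signal filter was applied, so all 107 factors were tested. Named genes are those called in any of 7 tests, the 5 largest changes per direction and hairpin without overlap, the measured epidermal factors, GATA6, SOX2 and ZIC2, EZH2, and in 2 outside lists the calls and 3 smallest p-values per hairpin. Other genes named with values (HAND1, HAND2, GATA1, GATA2, GATA5, ZIC1, ZIC4, FOXO3, SOX12, LUM, THY1, DPT, KDR and other marker genes) complete a family, a second probe set or a marker list. HAND1 and ZIC5 were given in full after their values were seen. KLF2 and FOXP3 are named because they shared the array split of GATA6 and HAND1. Members and lists were chosen with earlier results of these data known. Promoter sequences are from RefSeq, GRCh38.p14.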

Additional observations from a re-analysis of the deposited data

How the results depend on the processing

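None of the 10 values of GATA6, SOX9, FOXO4, SOX2 and ZIC2 that were refitted changed sign, but most alternatives could not change it. The groups compared did not overlap in any of these, so leaving out 1 array could not reverse a difference. A block, another variance, a gene filter or averaged probe sets left each difference as it was. Only quantile normalization and median centring could have changed a sign. Counts of called factors did change. With a trended and robust variance, 1 factor (GATA6) was called with shRING1B, 6 with shEZH2, 5 between shRING1B and shEZH2, 1 between shRING1B and shBMI1, 10 between shEZH2 and shBMI1, and 9 by the F test, while 36, 648, 555, 38, 640 and 633 of all 14884 genes were called in the same order. Leaving out the dimmest 30% of genes gave 2, 5, 8 and 5 for shEZH2, shRING1B against shEZH2, shEZH2 against shBMI1 and the F test, where 409, 361, 445 and 277 of all genes were called, and moved the shRING1B median of the factors to 0.0088. Fitting only the arrays compared gave 0 called in the 3 comparisons with calls. The F test called 2 factors (GATA6 and ZIC2) with median centring or averaged probe sets per gene, and 4 with protein-coding genes alone, a setting added after seeing the data. Leaving out each array in turn gave 0 to 1 called factors with shEZH2, 0 to 1 between shRING1B and shEZH2, 0 to 2 between shEZH2 and shBMI1, and 0 by the F test. The same step gave medians of 0.0053 to 0.0714 with shRING1B, 0.0517 to 0.0808 with shEZH2 and -0.025 to 0.022 with shBMI1. The cause of these changes was not tested, except that fewer genes or arrays enter some fits. Whether equal replicate numbers mark a shared batch is not stated in the labels. Correlations of replicate differences between hairpins ran from 0.00066 to 0.248 and do not settle it. With replicate numbers as a block the F test called 2 factors. SOX2 was then no longer called between shEZH2 and shBMI1 (adjusted p = 0.0662).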
